A study of Homo sapiens with 48 samples.

Results

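MYC and 41 genes that build ribosomes in the nucleolus, or that are commonly counted with them as MYC-driven growth genes, were followed through treatment of lymphoma cells with inhibitors of 2 histone methyltransferases. The 42 genes were found by their symbols among the 37706 rows of the count table, and all 42 were among the 17749 genes with enough counts to be tested. MYC is 1 of them. Another 4 serve transcription of ribosomal DNA, 5 belong to small nucleolar ribonucleoproteins (snoRNPs), 8 to small subunit assembly, 13 to large subunit assembly and 6 to the abundant nucleolar proteins. The last 5 are a pair of mitochondrial chaperones and 3 enzymes of polyamine or pyrimidine synthesis.

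RNA was sequenced from 48 libraries of 4 established human lines, SUDHL6, Oci-Ly18, Oci-Ly7 and Oci-Ly8, labelled as germinal centre B cell type diffuse large B cell lymphoma (GCB-DLBCL). In every line cells were grown for 6 days with EPZ-5676, which blocks DOT1L (DOT1Li), with GSK343, which blocks EZH2 (EZH2i), with both (the combination, labelled Combo), or with DMSO, the solvent control. Each of these 16 groups has 3 libraries, and cells were reseeded on day 3 in fresh medium with the inhibitors. The study asked how inhibition of both enzymes affects cell identity. Each line stands for 1 tumour. The growth notes list Oci-Ly8 in duplicate and omit Oci-Ly7, which the sample labels name, and the dose of either inhibitor is not given in the sources used here. The labels do not say whether the 3 libraries of a group come from separate cultures, so a p-value speaks only of the spread among them, which may be technical.

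MYC is a transcription factor that pairs with MAX and binds E-box sequences near the start sites of growth genes. Ribosomes are begun in the nucleolus, where RNA polymerase I copies ribosomal DNA, snoRNPs guide the chemical modification of the transcript, and assembly factors cut, fold and export the small and large subunit precursors. DOT1L methylates histones along transcribed genes, and EZH2 is the catalytic part of a Polycomb repressive complex, which keeps genes silent in germinal centre B cells.

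Promoters are shown for 6 genes, 5 with the E-box that MYC and MAX bind and 1 without it. RefSeq promoters of the GRCh38.p14 build, 250 bases before and 50 after a start site, were at hand for 34 of the 42 genes, 9 of which have 2 promoters. The letters CACGTG, a palindrome that reads the same on both strands, were found in the promoters of 17 of these 34 genes (50%), against 8.77% of 27305 genes with a promoter and 12.3% of the 11920 such genes that were tested here. CACGCG or its reverse complement CGCGTG, a variant that does not overlap CACGTG, was found for 10 of them (29.4%), against 13.5% of all and 21.9% of tested genes. The genes were chosen partly as known MYC targets, so this share is a description of the choice. The first 4 sequences are the CACGTG promoters of the genes with the lowest combination effect, the next is shared by a pair of genes, and the last is from the gene with the lowest effect among those with neither motif. Capitals mark CACGTG and, in MRTO4, also CACGCG, and every sequence runs 5′ to 3′ in the direction of its gene.
LYAR: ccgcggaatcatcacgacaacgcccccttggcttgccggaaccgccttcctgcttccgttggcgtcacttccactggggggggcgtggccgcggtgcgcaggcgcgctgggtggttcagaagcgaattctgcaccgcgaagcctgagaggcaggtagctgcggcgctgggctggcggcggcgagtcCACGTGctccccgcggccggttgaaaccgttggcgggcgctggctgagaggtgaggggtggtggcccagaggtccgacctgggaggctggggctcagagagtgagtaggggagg
DDX21: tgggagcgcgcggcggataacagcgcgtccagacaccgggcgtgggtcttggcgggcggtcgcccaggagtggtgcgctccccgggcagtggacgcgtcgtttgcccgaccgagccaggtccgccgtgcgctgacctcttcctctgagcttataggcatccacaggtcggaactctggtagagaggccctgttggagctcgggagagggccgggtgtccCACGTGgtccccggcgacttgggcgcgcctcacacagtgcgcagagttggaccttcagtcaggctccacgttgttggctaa
MRTO4: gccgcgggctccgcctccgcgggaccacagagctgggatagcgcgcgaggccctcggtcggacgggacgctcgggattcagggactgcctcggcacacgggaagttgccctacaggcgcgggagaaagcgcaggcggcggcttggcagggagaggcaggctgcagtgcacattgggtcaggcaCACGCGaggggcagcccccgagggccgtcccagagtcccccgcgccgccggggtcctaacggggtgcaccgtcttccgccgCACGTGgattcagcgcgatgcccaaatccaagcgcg
BYSL: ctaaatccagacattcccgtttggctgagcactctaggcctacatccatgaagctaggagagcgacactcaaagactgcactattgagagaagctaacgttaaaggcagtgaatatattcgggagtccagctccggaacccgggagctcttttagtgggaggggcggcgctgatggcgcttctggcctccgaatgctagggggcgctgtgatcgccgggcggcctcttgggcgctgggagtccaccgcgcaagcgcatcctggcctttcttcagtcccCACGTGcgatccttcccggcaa
HSPE1: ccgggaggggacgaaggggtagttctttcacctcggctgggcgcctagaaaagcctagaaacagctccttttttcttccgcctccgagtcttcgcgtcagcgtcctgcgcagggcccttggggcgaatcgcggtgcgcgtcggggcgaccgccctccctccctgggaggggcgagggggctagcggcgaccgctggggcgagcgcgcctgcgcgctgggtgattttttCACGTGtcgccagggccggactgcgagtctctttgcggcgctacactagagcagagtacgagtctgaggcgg
NOP16: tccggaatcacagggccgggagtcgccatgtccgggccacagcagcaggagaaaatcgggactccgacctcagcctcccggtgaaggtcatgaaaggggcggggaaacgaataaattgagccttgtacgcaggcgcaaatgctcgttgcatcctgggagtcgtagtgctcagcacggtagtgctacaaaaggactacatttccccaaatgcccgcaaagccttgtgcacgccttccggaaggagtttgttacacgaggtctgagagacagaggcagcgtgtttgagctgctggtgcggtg

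These windows lie at chr4:4289972-4290271 on the minus strand for 1 of 2 LYAR promoters, chr10:68956397-68956696 on the plus strand for the downstream of 2 DDX21 promoters, chr1:19251555-19251854 on the plus strand for MRTO4 and chr6:41921249-41921548 on the plus strand for BYSL. The other 2 are chr2:197500129-197500428 on the plus strand for HSPE1 and chr5:176388549-176388848 on the minus strand for NOP16. HSPE1 and HSPD1, which encode the mitochondrial co-chaperonin and chaperonin, are transcribed in opposite directions, and the single CACGTG at chr2:197500357-197500362 lies in both promoters. Its first base is at position -22 from the HSPE1 start site and -88 from the HSPD1 start site. Genes with CACGTG had a median combination log2 fold change of -0.38 averaged over the lines, and genes without it one of -0.28. The other promoters of LYAR, DDX21 and HSPD1 lack CACGTG. A match says only that the letters are present, and binding was not measured. No promoter is shown for MYC, NOLC1, NOP58, RRS1, RRP12, RRP1B, BOP1 and TCOF1.

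Library totals ran from 5174269 to 18845074 counts. B cell markers fitted the label: CD79A, CD79B, PAX5, CD22 and MS4A1 had counts in all 48 libraries, as did the germinal centre genes BCL6, MME, MYBL1 and S1PR2. SERPINA9 was at 0 in 33 libraries and LMO2 in 3. Summed markers of T cells reached 60.8 CPM, of myeloid cells 24.1 CPM, of epithelial cells 12.96 CPM and of fibroblasts or endothelium 120.2 CPM, nearly all of it PECAM1, in the highest library, against at least 89.1 CPM in every library for the single B cell gene CD79A. In 2 libraries, Oci-Ly8 DOT1Li replicate 3 and Oci-Ly8 DMSO replicate 3, long transcripts had fewer counts: the slope of log2 level on log2 exonic length was 0.758 and 0.723, against at least 0.821 in the other 46. Counts of calls that include Oci-Ly8 are also given without these libraries where they were computed. Levels below are in CPM, the count of a gene relative to the scaled total of its library, a gene is called at an adjusted p under 0.05 over all genes tested, and ± after a fold change is its standard error.

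MYC itself did not move in one direction. In SUDHL6 it fell with all 3 treatments, in Oci-Ly18 it rose with EZH2i and with the combination, and in Oci-Ly7 it was not called with any treatment. Averaged over the lines it was lower with DOT1Li, higher with EZH2i and lower with the combination. It was the only 1 of the 42 genes called higher with EZH2i in the average.

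MYC (ENSG00000136997, chr8:127735434-127742951, GRCh38 coordinates of GENCODE 29, as for the genes that follow) was read from 1616 counts or more in every library. In Oci-Ly7, MYC measured 232, 183 and 185 CPM with DOT1Li, 261, 232 and 232 with EZH2i, 224, 164 and 175 with the combination and 237, 197 and 211 with DMSO. In Oci-Ly8, MYC measured 314, 282 and 347 CPM with DOT1Li, 425, 413 and 418 with EZH2i, 289.7, 276 and 320.1 with the combination and 343, 323 and 376 with DMSO. In Oci-Ly7 the 3 treated groups each overlapped DMSO. In Oci-Ly8 the EZH2i libraries lay above all DMSO libraries and the combination libraries below all of them. In SUDHL6, MYC measured 328, 329 and 329.6 CPM with DOT1Li, 383, 377 and 421 with EZH2i, 259, 253 and 290.5 with the combination and 539, 471 and 455 with DMSO. In Oci-Ly18, MYC measured 495, 479 and 511 CPM with DOT1Li, 790.5, 816 and 832 with EZH2i, 622, 742 and 712 with the combination and 499, 510.0 and 517 with DMSO. In SUDHL6 the libraries of each treatment lay below all 3 DMSO libraries, and the combination libraries were also below those of either inhibitor. In Oci-Ly18 the EZH2i and combination libraries lay above all DMSO libraries, and DOT1Li overlapped them.

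DOT1Li changed MYC by a log2 fold change of -0.21 ± 0.046 (SE, edgeR adjusted p = 0.000897) in the average, and by -0.57 ± 0.091 in SUDHL6, the only line where it was called (adjusted p = 4.54e-05). EZH2i changed it by 0.20 ± 0.045 (SE, edgeR adjusted p = 0.000476) in the average. The EZH2i effect was 0.68 ± 0.091 in Oci-Ly18 (edgeR adjusted p = 7.81e-08) and 0.27 ± 0.091 in Oci-Ly8 (edgeR adjusted p = 0.0318), both called higher. In SUDHL6 it was -0.31 ± 0.090, called lower (edgeR adjusted p = 0.00853), and in Oci-Ly7 the uncalled value was 0.17 ± 0.091. The Oci-Ly8 call was lost with that line fitted alone (edgeR adjusted p = 0.144) and without DMSO replicate 1 or 2 or any 1 EZH2i replicate of the line (adjusted p from 0.0578 to 0.114). The SUDHL6 call was lost at -0.23 without SUDHL6 DMSO replicate 1. With the combination MYC changed by -0.21 ± 0.045 (SE, edgeR adjusted p = 0.000107) in the average. By line this was -0.87 ± 0.091 in SUDHL6 and 0.44 ± 0.090 in Oci-Ly18, both called (edgeR adjusted p = 9.12e-11 and 9.65e-05). In Oci-Ly8 it was -0.23 ± 0.091 (edgeR adjusted p = 0.0402), and in Oci-Ly7 it was -0.19 ± 0.092 and not called. The Oci-Ly8 call was lost at -0.18 without the 2 libraries poor in long transcripts, at -0.20 by DESeq2 and with DESeq2 size factors, at -0.12 with scaling by totals only, and at -0.23 with the line fitted alone. It was also lost without DMSO replicate 1 or 3 or combination replicate 1 or 2 of Oci-Ly8. In Oci-Ly7 MYC passed the test at -0.34 without combination replicate 1 of that line, and under a replicate block at -0.20 with the combination and 0.17 with EZH2i (edgeR adjusted p = 0.00782 and 0.0402).

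The averages of MYC rest on single lines. Without SUDHL6 the combination average was 0.0058 and the DOT1Li average -0.095, and without Oci-Ly18 the EZH2i average was 0.043; none of these 3 was called. The difference between lines was itself tested, and MYC had the smallest p among the 42 genes for DOT1Li, EZH2i and the combination (edgeR adjusted p = 0.0156, 6.97e-07 and 1.92e-10). The combination effect in SUDHL6 was -0.88 ± 0.11 relative to the mean of the other lines, and in Oci-Ly18 0.88 ± 0.10.

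With DMSO alone MYC stood highest in Oci-Ly18 and SUDHL6, at 509 ± 9.47 and 489 ± 44.6 CPM (SD, n = 3 each), whose libraries overlapped. It was lower in Oci-Ly8, at 347 ± 26.6 CPM, and lowest in Oci-Ly7, at 215 ± 20.4 CPM (SD, n = 3 each). These last steps in the order did not overlap.

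**Figure D1:**
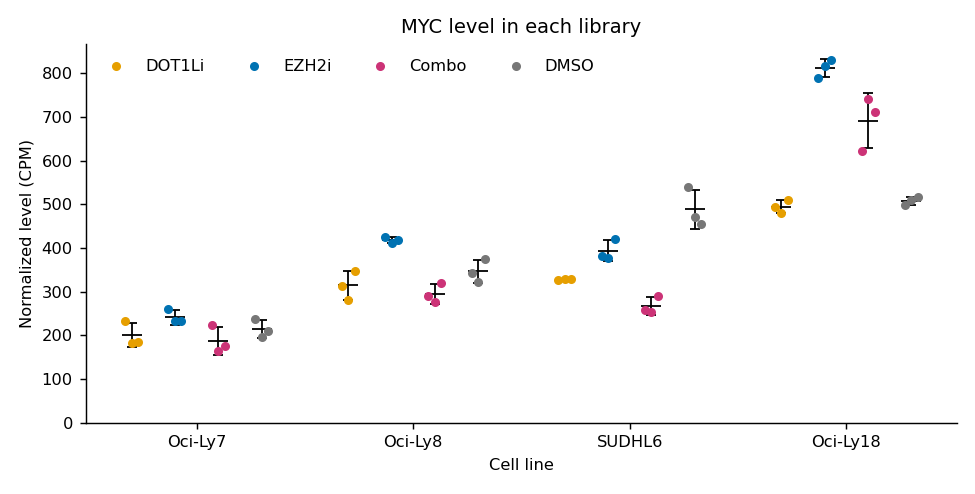
Normalized level of MYC in CPM (y axis) in each of the 48 libraries, grouped by cell line (x axis) and coloured by treatment, with DMSO rightmost in each line. Points are libraries, horizontal marks are means and error bars are the SD of 3 libraries; SUDHL6 sits lower with every treatment than with DMSO, and Oci-Ly18 sits higher with EZH2i and the combination.

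The nucleolar genes moved together with the combination. Averaged over the 4 lines all 42 genes were called lower, where 20.7% of all genes tested were called lower and 25.7% higher, and none was called higher by edgeR (0 at an unadjusted p under 0.05, and 0 by DESeq2). The median log2 fold change of the 42 was -0.35, or 21.5% lower, while the median over all genes was 0.078. The 42 genes were chosen with earlier results of these data known, so their contrast with all genes is no independent check. The effects ran from -0.61 for LYAR to -0.15 for UBTF and -0.15 for NOC3L. Leaving out any 1 of the 48 libraries kept the count at 42, and averages over 3 lines, chosen after seeing the data, gave 39 to 42.

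By line, 39 genes were called lower with the combination in SUDHL6 (16.8% of all genes), 34 in Oci-Ly8 (16.9%), 25 in Oci-Ly7 (12.2%) and 13 in Oci-Ly18 (14%). The medians were -0.59, -0.40, -0.24 and -0.18 in that order of lines, and the medians over all genes were between 0 and 0.051. MYC in Oci-Ly18 was the only member called higher (21.1% of all genes there, 17.7% in Oci-Ly7, 18.1% in Oci-Ly8 and 22.6% in SUDHL6). Without the 2 libraries poor in long transcripts the count was 30 in Oci-Ly8 and 24 in Oci-Ly18. The Oci-Ly18 count also depended on a single library, at 22 without Oci-Ly8 DMSO replicate 3 and 8 without Oci-Ly18 DMSO replicate 2. Counting without a test, all 3 combination libraries lay below all 3 DMSO libraries for 40 genes in SUDHL6 (22.7% of all genes), 33 in Oci-Ly7 (19.3%), 26 in Oci-Ly18 (22.1%) and 25 in Oci-Ly8 (15.4%), or 26 there without the libraries poor in long transcripts (21.5%).

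Across lines, 9 genes were called lower in all 4: TCOF1, DKC1, NOLC1, WDR43, BYSL, MRTO4, GNL3, DDX21 and PA2G4 (1.92% of all genes were). The estimate was below 0 in every line for 30 of the 42 (13.5% of all genes). The 12 others had an estimate above 0 in 1 line each: MYC, POLR1C, RRP9, NOB1, NOC2L, NOC3L, NPM1 and ODC1 in Oci-Ly18, UBTF, RRS1 and CAD in Oci-Ly8, and FBL in Oci-Ly7. Summed over the 42 genes, the share of all counts was 1.10% ± 0.053 with the combination and 1.54% ± 0.029 with DMSO in SUDHL6 (SD, n = 3 each). In Oci-Ly8 it was 1.49% ± 0.037 with the combination and 1.80% ± 0.146 with DMSO, and in Oci-Ly7 1.37% ± 0.040 and 1.57% ± 0.039 in the same order. In Oci-Ly18 it was 1.53% ± 0.024 with the combination and 1.58% ± 0.034 with DMSO, where the libraries overlapped. RNA from fewer growing cells and less of these RNAs per cell cannot be told apart in bulk libraries.

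**Figure D2:**
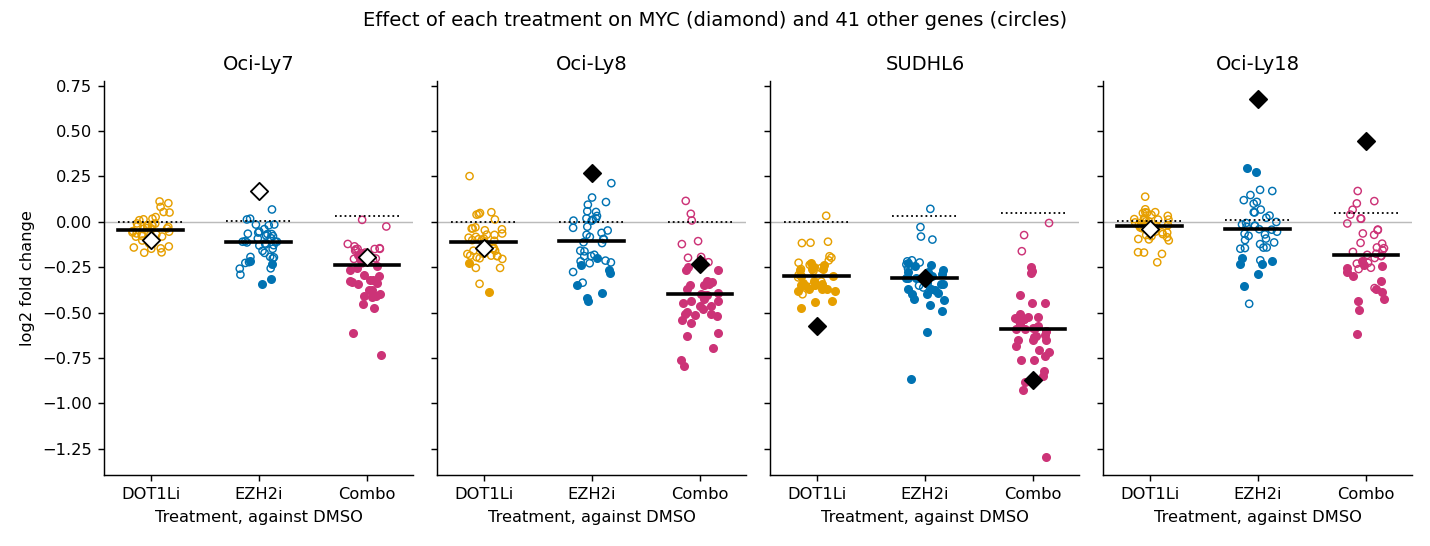
log2 fold change against DMSO (y axis) of MYC (diamonds) and the 41 other genes (circles) for each treatment (x axis) in each line (panels). Filled symbols are called, thick bars are the median of the 42 genes and dotted lines the median of all genes; the circles sit lowest with the combination in SUDHL6, while the MYC diamond lies above all circles in Oci-Ly18 with EZH2i and with the combination.

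All 4 genes of ribosomal DNA transcription were called lower with the combination in the average, with a median of -0.29. TCOF1 fell most and UBTF, the upstream binding factor that opens ribosomal DNA for RNA polymerase I, fell least. UBTF was called lower by line in Oci-Ly18 alone, at -0.37, and had 552, 542 and 524 CPM with the combination and 682, 714 and 697 CPM with DMSO there, without overlap. POLR1C, a subunit shared by RNA polymerases I and III, averaged -0.24.

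TCOF1 (ENSG00000070814, chr5:150357629-150400308) encodes treacle, a scaffold of RNA polymerase I transcription. In Oci-Ly7, TCOF1 measured 381, 382 and 390.2 CPM with DOT1Li, 339, 334 and 327 with EZH2i, 329, 309.8 and 339 with the combination and 381, 399 and 396 with DMSO. In Oci-Ly8, TCOF1 measured 456, 450.4 and 525 CPM with DOT1Li, 435, 426 and 404 with EZH2i, 357, 356 and 356 with the combination and 458, 514 and 546 with DMSO. EZH2i and combination libraries lay below all DMSO libraries in both lines. In SUDHL6, TCOF1 measured 394, 399.8 and 413 CPM with DOT1Li, 364, 360.4 and 372 with EZH2i, 307, 302 and 326 with the combination and 484, 472 and 491 with DMSO. In Oci-Ly18, TCOF1 measured 445, 470.4 and 498 CPM with DOT1Li, 419.6, 433 and 434 with EZH2i, 383, 352 and 343 with the combination and 494, 516 and 501 with DMSO. The same held in these lines, so that TCOF1 with the combination was below all 3 DMSO libraries in all 4 lines. Its average combination effect was -0.47 ± 0.030 (SE, edgeR adjusted p = 5.47e-18), and it was called lower at log2 fold changes of -0.27 in Oci-Ly7, -0.51 in Oci-Ly8, -0.63 in SUDHL6 and -0.49 in Oci-Ly18.

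POLR1B (ENSG00000125630, chr2:112541915-112579818) encodes the second largest subunit of RNA polymerase I. In Oci-Ly7, POLR1B measured 83.4, 69.6 and 75.9 CPM with DOT1Li, 83.2, 70.4 and 75.2 with EZH2i, 69.5, 61.9 and 69.3 with the combination and 84.8, 86.5 and 82.4 with DMSO. In Oci-Ly8, POLR1B measured 113, 124 and 104 CPM with DOT1Li, 124, 124 and 121 with EZH2i, 92.1, 101 and 96.2 with the combination and 114, 144 and 108 with DMSO. The combination libraries were lower than every DMSO library in both lines. In SUDHL6, POLR1B measured 71.7, 66.8 and 70.2 CPM with DOT1Li, 72.1, 64.4 and 76.1 with EZH2i, 61.7, 55.2 and 62.5 with the combination and 97.9, 83.7 and 88.3 with DMSO. In Oci-Ly18, POLR1B measured 103, 103 and 98.4 CPM with DOT1Li, 99.8, 111 and 101 with EZH2i, 97.2, 97.00 and 93.3 with the combination and 111, 106 and 95.9 with DMSO. They were lower in SUDHL6 as well and overlapped in Oci-Ly18. The average was -0.35 ± 0.042 (SE, edgeR adjusted p = 1.27e-09), and POLR1B was called lower at log2 fold changes of -0.34 in Oci-Ly7, -0.34 in Oci-Ly8 and -0.59 in SUDHL6, with an uncalled value of -0.12 in Oci-Ly18.

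All 5 snoRNP genes were called lower in the average, with a median of -0.34. FBL, the methyltransferase of box C/D snoRNPs, averaged -0.34 and differed widely between lines, from -0.61 in Oci-Ly8 to an uncalled 0.011 in Oci-Ly7. FBL levels in Oci-Ly8 were 458, 479 and 667 CPM with DMSO and 329, 364 and 357 with the combination. The highest of these, DMSO replicate 3, is from a library poor in long transcripts, so the size of the Oci-Ly8 effect depends partly on that library. NOP56 and NOP58, core partners of FBL, averaged -0.26 and -0.35.

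NOLC1 (ENSG00000166197, chr10:102152176-102163871) encodes a chaperone that moves snoRNPs through the nucleolus. In Oci-Ly7, NOLC1 measured 690.3, 630.2 and 642 CPM with DOT1Li, 558, 589 and 566 with EZH2i, 532, 488 and 518 with the combination and 692, 726 and 714 with DMSO. In Oci-Ly8, NOLC1 measured 796, 825 and 698 CPM with DOT1Li, 699, 727 and 696 with EZH2i, 553, 614 and 600.3 with the combination and 804, 893 and 739.8 with DMSO. EZH2i and combination libraries lay below DMSO in both lines. In SUDHL6, NOLC1 measured 659, 648 and 665 CPM with DOT1Li, 598, 564 and 606 with EZH2i, 468, 435 and 479.8 with the combination and 857, 831 and 797 with DMSO. In Oci-Ly18, NOLC1 measured 782, 880.2 and 837 CPM with DOT1Li, 708, 746 and 725 with EZH2i, 674, 706 and 681 with the combination and 809.6, 890.3 and 832 with DMSO. They lay below DMSO here too, and DOT1Li did in SUDHL6 and in Oci-Ly7. The average combination effect was -0.52 ± 0.032 (SE, edgeR adjusted p = 2.16e-18), and NOLC1 was called lower at log2 fold changes of -0.47 in Oci-Ly7, -0.46 in Oci-Ly8, -0.85 in SUDHL6 and -0.30 in Oci-Ly18.

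DKC1 (ENSG00000130826, chrX:154762742-154777689) encodes dyskerin, the pseudouridine synthase of H/ACA snoRNPs. In Oci-Ly7, DKC1 measured 378, 365 and 371 CPM with DOT1Li, 339, 359 and 360.2 with EZH2i, 337, 322 and 329 with the combination and 368, 385 and 386 with DMSO. In Oci-Ly8, DKC1 measured 415, 427 and 496 CPM with DOT1Li, 415, 442 and 459 with EZH2i, 360.3, 382 and 376 with the combination and 356, 444 and 500.1 with DMSO. In Oci-Ly8 the combination libraries lay within the wide DMSO range, and in Oci-Ly7 below it. In SUDHL6, DKC1 measured 317, 334 and 334 CPM with DOT1Li, 290.5, 304 and 307 with EZH2i, 249, 253 and 266 with the combination and 404, 375 and 385 with DMSO. In Oci-Ly18, DKC1 measured 433, 476 and 471 CPM with DOT1Li, 402, 431 and 419.9 with EZH2i, 380.2, 387 and 376 with the combination and 443, 467 and 472 with DMSO. In both of these lines they lay below all DMSO libraries. The average was -0.32 ± 0.035 (SE, edgeR adjusted p = 1.04e-10), and DKC1 was called lower at log2 fold changes of -0.21 in Oci-Ly7, -0.22 in Oci-Ly8, -0.60 in SUDHL6 and -0.27 in Oci-Ly18. Small RNA genes on the same strand share 5.85% of its exonic bases.

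All 8 genes of small subunit assembly were called lower in the average, with a median of -0.36. All 8 were also called lower in SUDHL6, 6 each in Oci-Ly7 and Oci-Ly8, and 2 in Oci-Ly18. The average effects of the 4 not given in full were -0.35 for TSR1 and -0.38 for PNO1, both late factors of the precursor subunit, -0.31 for the export factor RRP12 and -0.34 for UTP20, a component of the early processome.

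BYSL (ENSG00000112578, chr6:41921499-41933046) encodes bystin, needed to mature the small subunit precursor, and its promoter is printed above. In Oci-Ly7, BYSL measured 53.9, 54.05 and 51.5 CPM with DOT1Li, 50.2, 49.2 and 50.99 with EZH2i, 44.7, 41.1 and 43.99 with the combination and 57.3, 58.01 and 57.7 with DMSO. In Oci-Ly8, BYSL measured 61.2, 64.4 and 71.2 CPM with DOT1Li, 68.7, 69.3 and 67.6 with EZH2i, 55.05, 63.1 and 53.97 with the combination and 58.3, 78.8 and 85.3 with DMSO. In Oci-Ly7 every treated group lay below DMSO, while in Oci-Ly8 all overlapped it, with DMSO replicate 1 the lowest of its group. In SUDHL6, BYSL measured 46.4, 44.8 and 56.04 CPM with DOT1Li, 40.03, 43.6 and 47.2 with EZH2i, 33.9, 34.1 and 36.9 with the combination and 67.03, 65.2 and 66.9 with DMSO. In Oci-Ly18, BYSL measured 62.5, 62.4 and 59.2 CPM with DOT1Li, 55.1, 57.3 and 56.7 with EZH2i, 49.8, 57.5 and 47.02 with the combination and 69.6, 70.3 and 66.9 with DMSO. Every treated group lay below DMSO in both of these lines. The average combination effect was -0.53 ± 0.044 (SE, edgeR adjusted p = 2.68e-14), and BYSL was called lower at log2 fold changes of -0.41 in Oci-Ly7, -0.37 in Oci-Ly8, -0.93 in SUDHL6 and -0.42 in Oci-Ly18. It also had the lowest DOT1Li average of the 42, at -0.23 ± 0.044 (SE, edgeR adjusted p = 0.000269).

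WDR43 (ENSG00000163811, chr2:28894667-28948219) encodes a component of the complex that links ribosomal RNA transcription to early processing. In Oci-Ly7, WDR43 measured 260.3, 237 and 235 CPM with DOT1Li, 236, 235 and 238 with EZH2i, 212, 183 and 199 with the combination and 251, 289 and 271 with DMSO. In Oci-Ly8, WDR43 measured 338, 355 and 330.4 CPM with DOT1Li, 347, 369 and 341 with EZH2i, 265, 280.3 and 271 with the combination and 303, 425 and 349 with DMSO. The combination libraries lay below DMSO in both lines. In SUDHL6, WDR43 measured 201, 207 and 211 CPM with DOT1Li, 203, 198 and 221 with EZH2i, 172, 171 and 180.0 with the combination and 276, 271 and 258 with DMSO. In Oci-Ly18, WDR43 measured 269.9, 283 and 269.6 CPM with DOT1Li, 273, 281 and 268 with EZH2i, 247, 254 and 241 with the combination and 289, 297 and 276 with DMSO. They lay below DMSO again in both. The average was -0.42 ± 0.036 (SE, edgeR adjusted p = 7.04e-14), and WDR43 was called lower at log2 fold changes of -0.45 in Oci-Ly7, -0.40 in Oci-Ly8, -0.62 in SUDHL6 and -0.22 in Oci-Ly18.

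RRP9 (ENSG00000114767, chr3:51933429-51941904) encodes a protein of the snoRNP that starts small subunit processing and was named for its differences between lines. In Oci-Ly7, RRP9 measured 64.8, 64.9 and 59.00 CPM with DOT1Li, 63.8, 65.6 and 63.4 with EZH2i, 61.3, 55.2 and 59.01 with the combination and 58.2, 69.5 and 63.3 with DMSO. In Oci-Ly8, RRP9 measured 74.1, 73.7 and 78.9 CPM with DOT1Li, 88.7, 95.6 and 92.5 with EZH2i, 73.7, 79.9 and 78.1 with the combination and 62.8, 94.3 and 95.4 with DMSO. All treated groups overlapped DMSO in these lines. In SUDHL6, RRP9 measured 45.2, 42.7 and 46.8 CPM with DOT1Li, 47.6, 44.1 and 53.2 with EZH2i, 37.9, 38.4 and 42.8 with the combination and 63.3, 57.1 and 66.7 with DMSO. In Oci-Ly18, RRP9 measured 54.7, 65.4 and 57.4 CPM with DOT1Li, 66.1, 72.98 and 73.6 with EZH2i, 63.9, 69.4 and 64.8 with the combination and 59.5, 60.6 and 55.9 with DMSO. Every treated group lay below DMSO in SUDHL6, whereas EZH2i and the combination lay above it in Oci-Ly18. With EZH2i it was called lower at log2 fold changes of -0.37 in SUDHL6 and called higher at 0.27 in Oci-Ly18, with uncalled values of 0.013 in Oci-Ly7 and 0.13 in Oci-Ly8, and this difference between lines passed the test (edgeR adjusted p = 0.00114). The DOT1Li effect differed as well (edgeR adjusted p = 0.0481).

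NOB1 (ENSG00000141101, chr16:69741871-69754926) encodes the endonuclease that makes the last cut of small subunit ribosomal RNA. In Oci-Ly7, NOB1 measured 85.8, 83.3 and 81.7 CPM with DOT1Li, 76.9, 80.1 and 82.04 with EZH2i, 73.8, 63.7 and 67.2 with the combination and 83.4, 86.3 and 88.1 with DMSO. In Oci-Ly8, NOB1 measured 111, 109 and 143 CPM with DOT1Li, 114, 122 and 117 with EZH2i, 97.5, 104 and 106 with the combination and 131, 127 and 172 with DMSO. EZH2i and combination libraries lay below DMSO in both lines. In SUDHL6, NOB1 measured 86.5, 84.8 and 89.97 CPM with DOT1Li, 85.6, 87.6 and 89.3 with EZH2i, 66.3, 58.9 and 70.5 with the combination and 115, 106 and 112 with DMSO. In Oci-Ly18, NOB1 measured 100.3, 108 and 105 CPM with DOT1Li, 117, 114 and 113 with EZH2i, 104, 117 and 115 with the combination and 105, 101 and 103 with DMSO. In SUDHL6 all treated groups lay below DMSO, and in Oci-Ly18 EZH2i lay above it while the combination overlapped. With the combination NOB1 was called lower at log2 fold changes of -0.33 in Oci-Ly7, -0.48 in Oci-Ly8 and -0.76 in SUDHL6, with an uncalled value of 0.11 in Oci-Ly18, with an edgeR adjusted p = 2.59e-07 for the difference between lines.

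All 13 genes of large subunit assembly were called lower in the average, with a median of -0.33. MRTO4, a stalk-like assembly factor, had the lowest average of this group at -0.54, with -0.76 in SUDHL6. MRTO4 levels in Oci-Ly8 were 60.9, 89.2 and 126 CPM with DMSO and 60.8, 60.8 and 56.6 with the combination. The highest of these, DMSO replicate 3, is from a library poor in long transcripts, and DMSO replicate 1 was close to the combination. PES1, BOP1 and WDR12, which form 1 complex, averaged -0.35, -0.33 and -0.27. GNL3, also called nucleostemin, averaged -0.30 and RRP1B -0.37, while NOC2L and NOC3L averaged -0.20 and -0.15. NOP2 and PPAN averaged -0.43 and -0.23. These last 2 are uncertain, since GENCODE 29 gives 54.4% of the exonic bases of NOP2 and 59.8% of those of PPAN also to other genes on the same strand, and their levels per kilobase were the lowest of the 42, at 0.90 and 3.88 CPM per kb with DMSO.

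NOP16 (ENSG00000048162, chr5:176383946-176388927) encodes a protein of the large subunit precursor, and its promoter above holds neither motif. In Oci-Ly7, NOP16 measured 100.4, 98.4 and 95.8 CPM with DOT1Li, 90.2, 94.9 and 95.9 with EZH2i, 84.5, 77.4 and 82.4 with the combination and 96.03, 113 and 107 with DMSO. In Oci-Ly8, NOP16 measured 111, 113 and 140.2 CPM with DOT1Li, 109, 116 and 118 with EZH2i, 83.9, 89.1 and 92.4 with the combination and 88.96, 147 and 155 with DMSO. In Oci-Ly7 the combination lay below DMSO, and in Oci-Ly8 it overlapped DMSO replicate 1. In SUDHL6, NOP16 measured 58.7, 54.1 and 64.7 CPM with DOT1Li, 59.5, 56.9 and 60.1 with EZH2i, 42.1, 39.7 and 49.3 with the combination and 79.2, 75.02 and 77.2 with DMSO. In Oci-Ly18, NOP16 measured 64.02, 72.1 and 62.3 CPM with DOT1Li, 66.5, 71.2 and 71.03 with EZH2i, 58.2, 58.4 and 61.5 with the combination and 68.98, 73.3 and 69.96 with DMSO. Both lines had all combination libraries below DMSO. The average was -0.50 ± 0.053 (SE, edgeR adjusted p = 9.39e-11), and NOP16 was called lower at log2 fold changes of -0.37 in Oci-Ly7, -0.56 in Oci-Ly8 and -0.82 in SUDHL6, with an uncalled value of -0.25 in Oci-Ly18.

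NIP7 (ENSG00000132603, chr16:69337996-69343106) encodes a factor for large subunit processing. In Oci-Ly7, NIP7 measured 66.8, 63.8 and 66.04 CPM with DOT1Li, 58.3, 58.9 and 56.7 with EZH2i, 56.8, 51.6 and 54.5 with the combination and 59.3, 63.6 and 59.03 with DMSO. In Oci-Ly8, NIP7 measured 66.5, 69.8 and 81.3 CPM with DOT1Li, 71.2, 78.5 and 75.8 with EZH2i, 65.2, 67.1 and 61.7 with the combination and 59.6, 86.3 and 76.6 with DMSO. In Oci-Ly7 DOT1Li lay above DMSO while EZH2i and the combination lay below it, and in Oci-Ly8 all groups overlapped. In SUDHL6, NIP7 measured 72.5, 74.4 and 72.8 CPM with DOT1Li, 63.7, 63.2 and 64.2 with EZH2i, 48.1, 43.8 and 50.6 with the combination and 91.1, 89.5 and 82.1 with DMSO. In Oci-Ly18, NIP7 measured 40.6, 45.7 and 45.4 CPM with DOT1Li, 37.5, 41.9 and 40.1 with EZH2i, 39.6, 39.98 and 37.4 with the combination and 45.3, 48.2 and 45.1 with DMSO. Every treated group lay below DMSO in SUDHL6, and in Oci-Ly18 EZH2i and the combination did. The average was -0.37 ± 0.041 (SE, edgeR adjusted p = 1.06e-10), NIP7 was called lower at log2 fold changes of -0.88 in SUDHL6 and -0.24 in Oci-Ly18, with uncalled values of -0.16 in Oci-Ly7 and -0.20 in Oci-Ly8, and the lines differed (edgeR adjusted p = 6.87e-07).

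RRS1 (ENSG00000179041, chr8:66429014-66430733) encodes a factor that brings ribosomal proteins into the large subunit precursor. In Oci-Ly7, RRS1 measured 92.4, 86.2 and 87.7 CPM with DOT1Li, 92.3, 87.97 and 86.9 with EZH2i, 86.9, 67.4 and 73.1 with the combination and 91.8, 92.4 and 95.8 with DMSO. In Oci-Ly8, RRS1 measured 96.9, 97.6 and 93.5 CPM with DOT1Li, 107, 115 and 109.6 with EZH2i, 97.8, 101 and 111 with the combination and 76.6, 107 and 102 with DMSO. The combination lay below DMSO in Oci-Ly7 and overlapped it in Oci-Ly8. In SUDHL6, RRS1 measured 63.1, 56.2 and 66.7 CPM with DOT1Li, 68.02, 62.9 and 74.5 with EZH2i, 54.7, 53.00 and 57.9 with the combination and 81.8, 72.99 and 85.2 with DMSO. In Oci-Ly18, RRS1 measured 86.5, 90.2 and 87.4 CPM with DOT1Li, 91.8, 91.1 and 91.8 with EZH2i, 82.8, 83.7 and 80.2 with the combination and 83.2, 86.5 and 84.9 with DMSO. In SUDHL6 DOT1Li and the combination lay below DMSO, and in Oci-Ly18 EZH2i and, by a margin smaller than the printed digits, DOT1Li lay above it. The average was -0.19 ± 0.041 (SE, edgeR adjusted p = 0.000136), and RRS1 was called lower at log2 fold changes of -0.30 in Oci-Ly7 and -0.53 in SUDHL6, with uncalled values of 0.12 in Oci-Ly8 and -0.046 in Oci-Ly18. For DOT1Li the difference between lines had an edgeR adjusted p = 0.0642, which did not pass. Another gene on the same strand shares 11.4% of its exonic bases.

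**Figure D3:**
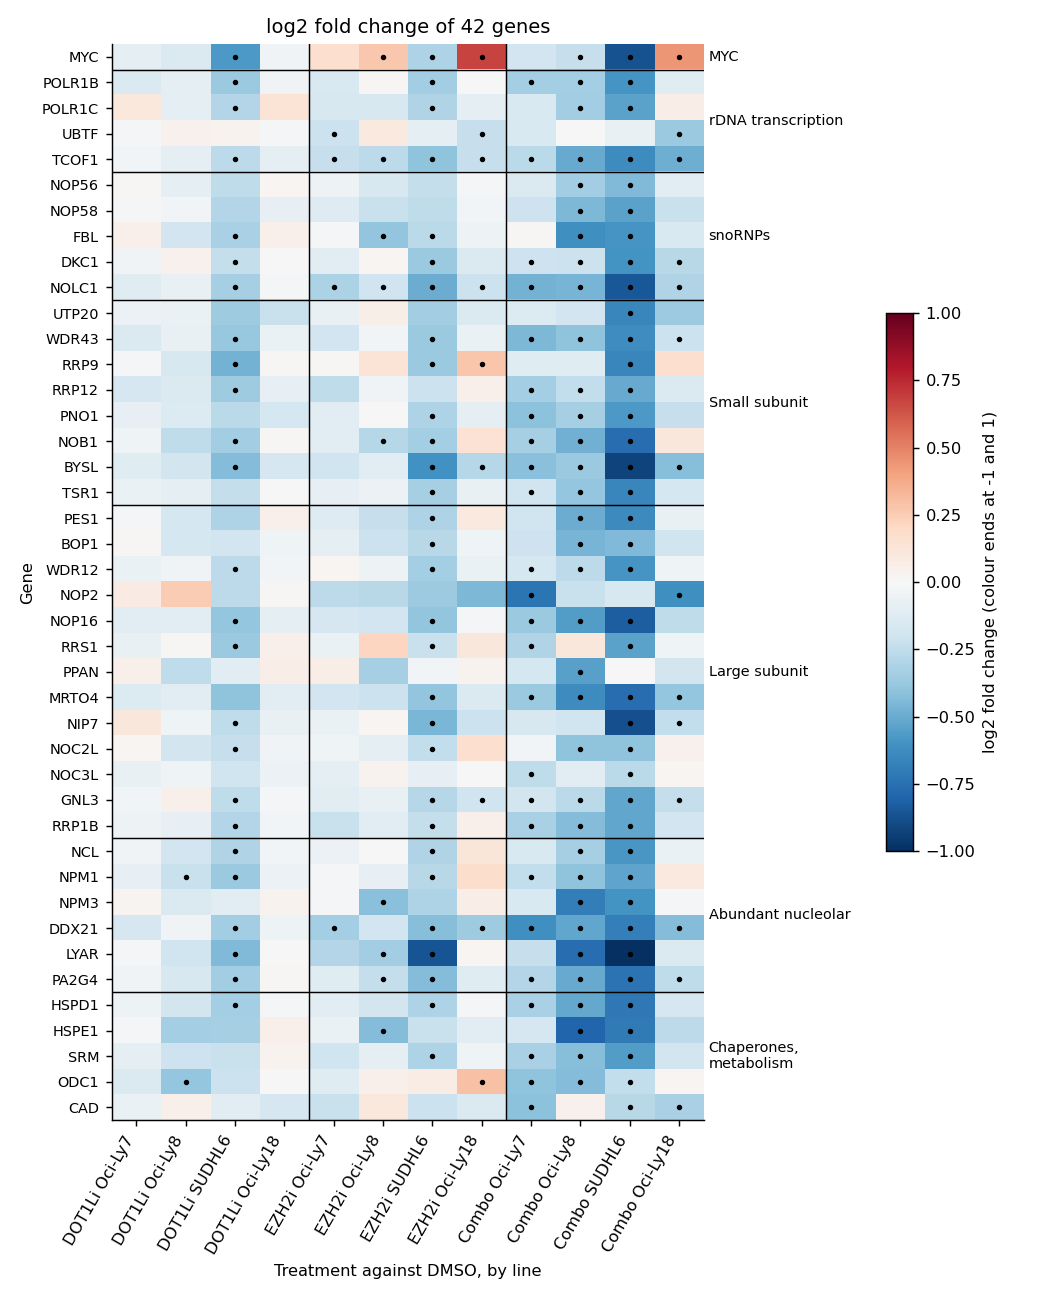
log2 fold change against DMSO of the 42 genes (rows, grouped by role) for each treatment in each line (columns), on a colour scale ending at -1 and 1. Black dots mark called genes; the SUDHL6 column of the combination has 39 dots and all 42 of its values below 0, and the top row, MYC, is red in Oci-Ly18 with EZH2i and the combination.

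All 6 abundant nucleolar proteins were called lower in the average, with a median of -0.41, and all 6 were called in Oci-Ly8 and in SUDHL6. NCL, or nucleolin, had the highest level of the 42 per exonic kilobase, at 588 CPM per kb with DMSO, and averaged -0.28 with the combination. NPM3 averaged -0.36.

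DDX21 (ENSG00000165732, chr10:68956135-68985068) encodes an RNA helicase of the nucleolus. In Oci-Ly7, DDX21 measured 908, 828 and 839 CPM with DOT1Li, 752, 760.0 and 774 with EZH2i, 670.0, 586 and 638 with the combination and 913, 1002 and 978 with DMSO. In Oci-Ly8, DDX21 measured 975, 1098 and 1267 CPM with DOT1Li, 968, 1019.7 and 1017 with EZH2i, 749, 829 and 809 with the combination and 905, 1230.5 and 1289 with DMSO. Every treated group lay below DMSO in Oci-Ly7, and the combination alone did in Oci-Ly8. In SUDHL6, DDX21 measured 777, 762 and 765 CPM with DOT1Li, 729.8, 716 and 738 with EZH2i, 606, 577 and 641 with the combination and 1052, 961 and 920.1 with DMSO. In Oci-Ly18, DDX21 measured 759.9, 844 and 771 CPM with DOT1Li, 623, 668 and 639 with EZH2i, 621, 609.8 and 593 with the combination and 779, 864 and 823 with DMSO. EZH2i and the combination lay below DMSO in both lines. The average combination effect was -0.56 ± 0.041 (SE, edgeR adjusted p = 5.2e-16), and DDX21 was called lower at log2 fold changes of -0.61 in Oci-Ly7, -0.52 in Oci-Ly8, -0.69 in SUDHL6 and -0.44 in Oci-Ly18. The lines did not differ past the test (edgeR adjusted p = 0.252).

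PA2G4 (ENSG00000170515, chr12:56104537-56113910) encodes a ribosome-binding growth regulator. In Oci-Ly7, PA2G4 measured 305, 311 and 298 CPM with DOT1Li, 277, 288 and 295 with EZH2i, 262, 246 and 257 with the combination and 310.1, 313 and 314 with DMSO. In Oci-Ly8, PA2G4 measured 338, 357 and 435 CPM with DOT1Li, 344, 369 and 353 with EZH2i, 279, 302 and 304 with the combination and 331, 412 and 516 with DMSO. In both, every combination library lay under the DMSO range. In SUDHL6, PA2G4 measured 229, 230.3 and 237 CPM with DOT1Li, 204, 222 and 232 with EZH2i, 176, 169 and 187 with the combination and 298, 291 and 299 with DMSO. In Oci-Ly18, PA2G4 measured 453, 521 and 474 CPM with DOT1Li, 425, 462 and 431 with EZH2i, 410.4, 408 and 384 with the combination and 459, 506 and 471 with DMSO. The same was seen in these 2 lines. The average was -0.45 ± 0.043 (SE, edgeR adjusted p = 1.94e-12), and PA2G4 was called lower at log2 fold changes of -0.29 in Oci-Ly7, -0.51 in Oci-Ly8, -0.74 in SUDHL6 and -0.26 in Oci-Ly18. Overlap with another gene on its strand covers 12.1% of its exonic bases.

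LYAR (ENSG00000145220, chr4:4267701-4290154) encodes a growth-regulating nucleolar protein and had the lowest combination average of the 42. In Oci-Ly7, LYAR measured 154, 165 and 152 CPM with DOT1Li, 124, 128 and 135 with EZH2i, 143, 129 and 133 with the combination and 146, 169 and 159 with DMSO. In Oci-Ly8, LYAR measured 255, 286 and 410.4 CPM with DOT1Li, 269, 296 and 290.0 with EZH2i, 206, 219 and 216 with the combination and 249, 358 and 481 with DMSO. The combination lay below DMSO in both, and the DMSO libraries of Oci-Ly8 were spread over a wide range. In SUDHL6, LYAR measured 340.5, 334 and 351 CPM with DOT1Li, 251, 252 and 263 with EZH2i, 189.6, 184 and 196 with the combination and 489.6, 449.7 and 455 with DMSO. In Oci-Ly18, LYAR measured 138, 154 and 136 CPM with DOT1Li, 140.1, 152 and 144 with EZH2i, 131, 131 and 128 with the combination and 149, 144 and 137 with DMSO. In SUDHL6 each treatment lay below DMSO, and in Oci-Ly18 only the combination did. The average was -0.61 ± 0.062 (SE, edgeR adjusted p = 1.03e-10), and LYAR was called lower at log2 fold changes of -0.76 in Oci-Ly8 and -1.29 in SUDHL6, with uncalled values of -0.23 in Oci-Ly7 and -0.14 in Oci-Ly18. The EZH2i effect differed between lines (edgeR adjusted p = 0.00139), at -0.87 in SUDHL6 and 0.022 in Oci-Ly18.

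NPM1 (ENSG00000181163, chr5:171387116-171411810) encodes nucleophosmin, a histone and ribosome chaperone, and was 1 of 4 genes higher with EZH2i than with DOT1Li. In Oci-Ly7, NPM1 measured 1810.2, 1771 and 1599 CPM with DOT1Li, 1777, 1882 and 1767 with EZH2i, 1600.3, 1557 and 1471 with the combination and 1800.2, 1907 and 1775 with DMSO. In Oci-Ly8, NPM1 measured 1821, 1863 and 2048 CPM with DOT1Li, 2094, 2169 and 2062 with EZH2i, 1634, 1788 and 1644 with the combination and 1966, 2267 and 2468 with DMSO. Combination libraries were below all DMSO libraries in both. In SUDHL6, NPM1 measured 927, 949 and 1001 CPM with DOT1Li, 965, 1051 and 1062 with EZH2i, 818, 851 and 908 with the combination and 1237, 1228 and 1258 with DMSO. In Oci-Ly18, NPM1 measured 1458, 1655 and 1481 CPM with DOT1Li, 1779, 1856 and 1773 with EZH2i, 1612, 1825 and 1699 with the combination and 1522, 1679 and 1587 with DMSO. Every treatment lay below DMSO in SUDHL6, and in Oci-Ly18 EZH2i lay above it. The average combination effect was -0.27 ± 0.034 (SE, edgeR adjusted p = 5.21e-09), and NPM1 was called lower at log2 fold changes of -0.24 in Oci-Ly7, -0.40 in Oci-Ly8 and -0.53 in SUDHL6, with an uncalled value of 0.10 in Oci-Ly18. The table also holds 42 pseudogene rows of NPM1, whose summed level is 3.07% of its own, so some reads may be assigned to either.

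**Figure D4:**
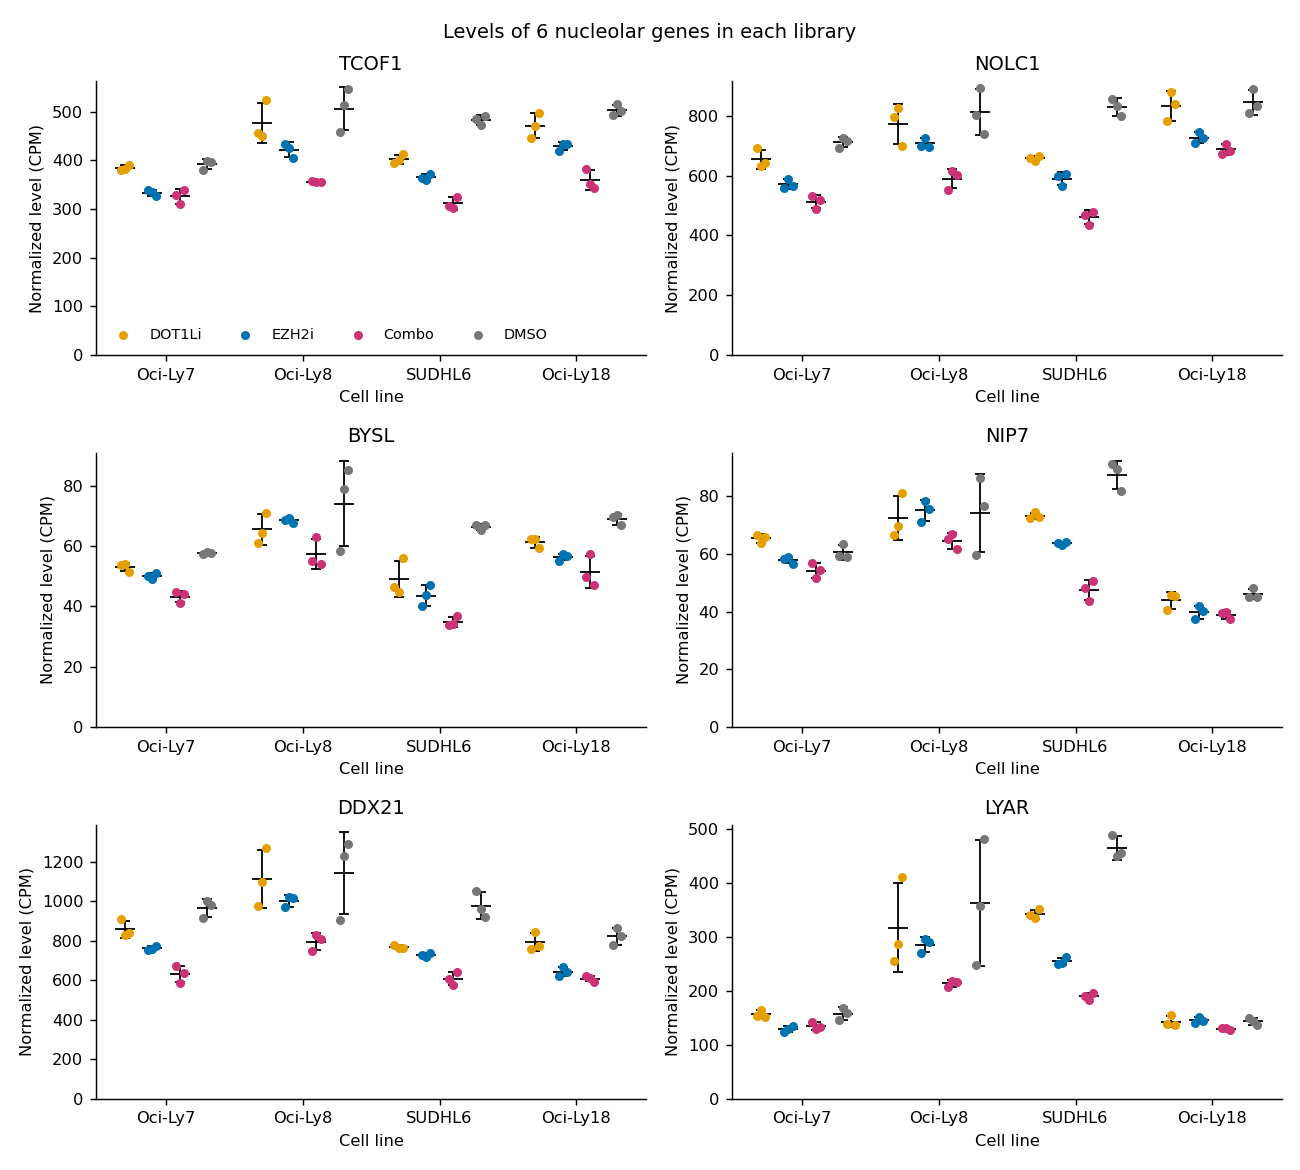
Normalized levels in CPM (y axes, from 0) of TCOF1, NOLC1, BYSL, NIP7, DDX21 and LYAR in each library, by line (x axes) and treatment (colours), with DMSO rightmost. Points are libraries, with the mean and SD of 3; the combination points lie lowest in SUDHL6 for all 6 genes, and the Oci-Ly8 DMSO points are widely spread.

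The 5 mitochondrial chaperone and biosynthesis genes were all called lower in the average, with a median of -0.37. HSPE1, which shares the promoter E-box with HSPD1, averaged -0.48, although the table has 14 pseudogene rows for it and only 18.4 CPM on average. CAD, which starts pyrimidine synthesis, averaged -0.24 and was not called in Oci-Ly8.

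HSPD1 (ENSG00000144381, chr2:197486584-197516737) encodes the chaperonin of mitochondria. In Oci-Ly7, HSPD1 measured 1525, 1362 and 1379 CPM with DOT1Li, 1373, 1363 and 1359.7 with EZH2i, 1224, 1129 and 1183 with the combination and 1537, 1467 and 1416 with DMSO. In Oci-Ly8, HSPD1 measured 1649.6, 1707 and 1729.9 CPM with DOT1Li, 1674, 1771 and 1662 with EZH2i, 1319, 1403 and 1342 with the combination and 1668, 2074 and 2049 with DMSO. The combination lay below DMSO in both lines. In SUDHL6, HSPD1 measured 689.6, 731 and 830.3 CPM with DOT1Li, 720.3, 754 and 825 with EZH2i, 547, 564 and 623 with the combination and 942, 933 and 975 with DMSO. In Oci-Ly18, HSPD1 measured 1379, 1435 and 1320.2 CPM with DOT1Li, 1371, 1377 and 1379 with EZH2i, 1289.6, 1233 and 1211 with the combination and 1369, 1439 and 1379.9 with DMSO. The combination lay below DMSO in both of these lines too. The average was -0.43 ± 0.034 (SE, edgeR adjusted p = 1e-14), and HSPD1 was called lower at log2 fold changes of -0.32 in Oci-Ly7, -0.51 in Oci-Ly8 and -0.72 in SUDHL6, with an uncalled value of -0.17 in Oci-Ly18.

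SRM (ENSG00000116649, chr1:11054584-11060020) encodes spermidine synthase. In Oci-Ly7, SRM measured 222, 210.2 and 209 CPM with DOT1Li, 189, 198 and 209 with EZH2i, 186, 177 and 185 with the combination and 225, 236 and 223 with DMSO. In Oci-Ly8, SRM measured 222, 243 and 302 CPM with DOT1Li, 269, 283 and 271 with EZH2i, 216, 215 and 225 with the combination and 231, 292 and 357 with DMSO. Every treated group lay below DMSO in Oci-Ly7, and the combination alone did in Oci-Ly8. In SUDHL6, SRM measured 129, 125 and 135 CPM with DOT1Li, 117, 123 and 127 with EZH2i, 103, 99.9 and 104 with the combination and 151, 148 and 156 with DMSO. In Oci-Ly18, SRM measured 185, 203 and 191 CPM with DOT1Li, 182, 184 and 182 with EZH2i, 170.3, 169 and 159 with the combination and 195, 194 and 176 with DMSO. All treatments lay below DMSO in SUDHL6, and the combination did in Oci-Ly18. The average was -0.37 ± 0.042 (SE, edgeR adjusted p = 3.24e-10), and SRM was called lower at log2 fold changes of -0.32 in Oci-Ly7, -0.42 in Oci-Ly8 and -0.56 in SUDHL6, with an uncalled value of -0.18 in Oci-Ly18.

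ODC1 (ENSG00000115758, chr2:10439968-10448327) encodes ornithine decarboxylase, the first enzyme of polyamine synthesis. In Oci-Ly7, ODC1 measured 629.6, 602 and 529.8 CPM with DOT1Li, 566, 601 and 622 with EZH2i, 536, 485 and 453 with the combination and 635, 688 and 620.1 with DMSO. In Oci-Ly8, ODC1 measured 409.9, 444 and 481 CPM with DOT1Li, 581, 635 and 595 with EZH2i, 415, 449.6 and 426 with the combination and 464, 613 and 667 with DMSO. The combination lay below DMSO in both lines. In SUDHL6, ODC1 measured 317, 325 and 363 CPM with DOT1Li, 381, 404 and 439 with EZH2i, 313, 316 and 353 with the combination and 384, 378 and 403 with DMSO. In Oci-Ly18, ODC1 measured 405, 469 and 398 CPM with DOT1Li, 480.1, 559 and 518 with EZH2i, 409, 462 and 416 with the combination and 389.9, 458 and 422 with DMSO. In SUDHL6 DOT1Li and the combination lay below DMSO, and in Oci-Ly18 EZH2i lay above it. The average combination effect was -0.27 ± 0.045 (SE, edgeR adjusted p = 2.57e-06), and ODC1 was called lower at log2 fold changes of -0.40 in Oci-Ly7, -0.43 in Oci-Ly8 and -0.25 in SUDHL6, with an uncalled value of 0.018 in Oci-Ly18. With EZH2i it was called higher at 0.29 in Oci-Ly18, with uncalled values of -0.12 in Oci-Ly7, 0.054 in Oci-Ly8 and 0.071 in SUDHL6.

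Each inhibitor alone had fewer of these genes called lower than the combination, with medians nearer to 0. With DOT1Li 19 of the 42 were called lower in the average, where 5.19% of all genes were, and none higher (5.08% of all genes; edgeR, with 0 at an unadjusted p under 0.05 and 0 by DESeq2). The median was -0.12, against 0.011 for all genes. By line, most calls were in SUDHL6, where 25 genes were called lower (2.11% of all genes) with a median of -0.30. In Oci-Ly8 2 were called lower, NPM1 and ODC1 (2.73%), and 2 were without the libraries poor in long transcripts, while in Oci-Ly7 and Oci-Ly18 none was (1.17% and 2.12%). By edgeR, 2 in Oci-Ly7 and 0 in Oci-Ly18 had an unadjusted p under 0.05, and DESeq2 called 0 in both. No gene was called higher in any line by edgeR (0 at an unadjusted p under 0.05 and 0 by DESeq2), where 1.72% of all genes were in Oci-Ly7, 3.53% in Oci-Ly8, 2.76% in SUDHL6 and 4.03% in Oci-Ly18. Without SUDHL6 the DOT1Li average called 3 genes.

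These DOT1Li counts depended on single libraries. The average called 34 without Oci-Ly8 DMSO replicate 1 and 29 without the 2 libraries poor in long transcripts. The SUDHL6 count was 12 without SUDHL6 DMSO replicate 1, 13 without DOT1Li replicate 1 and 15 without DOT1Li replicate 2, and the Oci-Ly8 count ran from 0 to 19 as single libraries of that line were left out. All 3 DOT1Li libraries lay below all 3 DMSO libraries for 38 of the 42 genes in SUDHL6 (13% of all genes), 5 in Oci-Ly7 (7.35%), 3 in Oci-Ly18 (10.9%) and 0 in Oci-Ly8 (5.32%), or 8 there without the libraries poor in long transcripts (17.1%).

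With EZH2i 30 genes were called lower in the average (12.5% of all genes) and MYC was called higher (15.7%), with a median of -0.15 against 0.030 for all genes. By line, 30 were called lower in SUDHL6 (8.67%), 8 in Oci-Ly8 (7.94%), 6 in Oci-Ly18 (9.04%) and 4 in Oci-Ly7 (4.92%). The Oci-Ly8, Oci-Ly18 and Oci-Ly7 medians were -0.10, -0.042 and -0.11, and that of SUDHL6 was -0.31. NOLC1 and TCOF1 were called lower in all 4 lines. In Oci-Ly18 MYC, RRP9 and ODC1 were called higher (13% of all genes) and in Oci-Ly8 MYC was (9.04%), while none was in Oci-Ly7 (8.78%) or SUDHL6 (14%; edgeR, with 0 at an unadjusted p under 0.05 and 0 by DESeq2 in both). In Oci-Ly18 TCOF1, UBTF, NOLC1, BYSL, GNL3 and DDX21 were called lower. Without SUDHL6 the average called 13 lower, and without the 2 libraries poor in long transcripts it called 31; the Oci-Ly7 count was then 10 and the Oci-Ly8 count 4.

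Set against each other, EZH2i left 9 genes lower (11.1% of all genes) and 4 higher (13.3%) than DOT1Li in the average, with a median of -0.037. The 4 were MYC at 0.42 ± 0.046 (edgeR adjusted p = 4.81e-10), ODC1 at 0.26 ± 0.045, RRP9 at 0.17 ± 0.047 and NPM1 at 0.14 ± 0.034. The 9 were POLR1C, UBTF, TCOF1, NOLC1, NOP2, NIP7, GNL3, DDX21 and LYAR, from -0.36 for NOP2 to -0.11 for GNL3.

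The combination went beyond either inhibitor alone for most genes. Against DOT1Li 34 were lower (15.8% of all genes) with a median of -0.23, and against EZH2i 38 were lower (12.2%) with a median of -0.21; none was higher in either by edgeR (19.4% and 12.8% of all genes were; 0 at an unadjusted p under 0.05, and 0 by DESeq2). Genes not called against DOT1Li were MYC, UTP20, RRP9, RRP12, RRS1, PPAN, NOC3L and ODC1, and those not called against EZH2i were POLR1C, UBTF, NOP2 and PPAN. MYC had -0.41 ± 0.045 against EZH2i (edgeR adjusted p = 1.35e-09) and 0.0014 ± 0.046 against DOT1Li. That second value averages lines that differ: MYC with the combination was higher than with DOT1Li in Oci-Ly18, at 0.48 ± 0.090 (edgeR adjusted p = 6.08e-05), and lower in SUDHL6, at -0.30 ± 0.091 (edgeR adjusted p = 0.0116).

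By line, genes lower with the combination than with DOT1Li numbered 28 in SUDHL6 (11.2% of all genes), 23 in Oci-Ly8 (8.61%), 16 in Oci-Ly7 (6.76%) and 9 in Oci-Ly18 (8.9%). MYC in Oci-Ly18 was the 1 gene called higher, where 12.7% of all genes were, and the shares higher in the other lines were 11.3% in Oci-Ly7, 10.8% in Oci-Ly8 and 14.3% in SUDHL6. Against EZH2i, 27 were lower in Oci-Ly8 (7.61%), 24 in SUDHL6 (3.69%), 7 in Oci-Ly7 (3.6%) and 4 in Oci-Ly18 (5.1%), while the shares of all genes called higher were 9.82%, 3.43%, 5.23% and 7.69% in that order of lines. Without the libraries poor in long transcripts the Oci-Ly8 counts were 19 against DOT1Li (8.4%) and 33 against EZH2i (11.7%). The medians against EZH2i were -0.26 in Oci-Ly8, -0.28 in SUDHL6, -0.13 in Oci-Ly7 and -0.14 in Oci-Ly18.

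Non-additivity was measured as the combination effect minus the sum of both single effects on the log2 scale, so that 0 means additive. No gene of the 42 was called in the average by edgeR (0.0282% of all genes were called lower), with 7 lower at an unadjusted p under 0.05 and 0 by DESeq2. All 42 estimates were below 0, from -0.20 for MYC to -0.0041, with a median of -0.085 against -0.00040 for all genes. All of them share the same DMSO libraries, so they are not separate observations. The lean was not particular to the 42. Of the 25 cell cycle genes listed below 24 were under 0, with a median of -0.11. All 12 snoRNP genes outside the 42 were too, with a median of -0.079. Shares of all genes under 0 or at that unadjusted p are not given here. By line the medians were -0.094 in Oci-Ly7, -0.14 in Oci-Ly8, 0.015 in SUDHL6 and -0.12 in Oci-Ly18. For MYC the average was -0.20 ± 0.064 (edgeR adjusted p = 0.385).

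The size of the effects differed between lines for many genes. The test of a difference between the 4 lines passed for 30 genes with the combination (43.8% of all genes) and 16 with EZH2i (24% of all genes). With DOT1Li it passed for 2, MYC and RRP9 (5.14%), so the DOT1Li share was near the background in the main fit. That count ran from 0 to 14 as single libraries were left out, with 14 without Oci-Ly8 DMSO replicate 1 and 0 without SUDHL6 DMSO replicate 1. Relative to the mean of the other lines, the SUDHL6 effect was lower for 24 genes with the combination (10.4%), 15 with EZH2i (4.24%) and 3 with DOT1Li (0.485%). By contrast the Oci-Ly18 effect was higher for 17 genes with the combination (7.53%) and 7 with EZH2i (4.03%), while 1, UBTF, was lower with the combination. The combination effect was also higher for 6 genes in Oci-Ly7, and lower for 4 and higher for 3 in Oci-Ly8. For UBTF and these last counts the shares of all genes are not given here. Without the 2 libraries poor in long transcripts the between-line counts were 35, 29 and 16 for the combination, EZH2i and DOT1Li. Shares of all genes in that fit are not given here, so these counts cannot be set against a background.

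Other genes of the same machinery behaved alike in the averaged combination, where 20.7% of all genes were called lower and 25.7% higher. The lists here and below were chosen with earlier results of these data known, so they are no independent check. Of 41 other small subunit assembly genes 34 were called lower and 7 not called, with a median of -0.29. They include IMP4 (-0.45 ± 0.034, adjusted p = 2.97e-15), UTP6 (-0.38 ± 0.031, adjusted p = 1.44e-14) and the acetyltransferase NAT10 (-0.39 ± 0.032, adjusted p = 3.39e-14, all edgeR). Of 40 other large subunit genes 39 were lower and 1, NOP53 (0.13 ± 0.053, adjusted p = 0.0355), was higher, with a median of -0.30. MAK16 (-0.53 ± 0.043, adjusted p = 1.98e-14), the helicase DDX18 (-0.46 ± 0.038, adjusted p = 2.42e-14) and FTSJ3 (-0.45 ± 0.037, adjusted p = 4.08e-14) had the smallest p. Of 12 other snoRNP genes 11 were lower, led by SNU13 (-0.34 ± 0.037, adjusted p = 9.82e-11), RUVBL1 (-0.29 ± 0.033, adjusted p = 3.28e-10) and GAR1 (-0.29 ± 0.042, adjusted p = 9.71e-08).

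Of 12 RNA polymerase I subunits and factors outside the 42, 7 were lower and 1 higher, with a median of -0.21. The initiation factor RRN3 (-0.27 ± 0.042, adjusted p = 3.58e-07), POLR1E (-0.21 ± 0.039, adjusted p = 8e-06) and POLR1H (-0.29 ± 0.059, adjusted p = 4.54e-05) had the smallest p. Of 18 other polyamine and nucleotide synthesis genes 14 were lower and 4 not called, with a median of -0.23, led by the purine enzymes PAICS (-0.44 ± 0.028, adjusted p = 1.46e-17) and PPAT (-0.40 ± 0.038, adjusted p = 1.91e-12) and by AMD1 (-0.43 ± 0.038, adjusted p = 2.67e-13), which makes the aminopropyl donor for spermidine.

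Of 14 partners and antagonists of MYC 13 were tested, and with the combination 4 were lower and 4 higher, against 20.7% and 25.7% of all genes, with a median of 0.06. MAX, the obligate partner of MYC, averaged -0.26 ± 0.032, adjusted p = 2.98e-09 (edgeR). MXD4, which competes with MYC for MAX and represses, averaged 0.72 ± 0.073, adjusted p = 1.52e-11 (edgeR). MYCL, a paralogue of MYC, averaged 0.80 ± 0.15, adjusted p = 9.18e-06 with the combination and 0.97 ± 0.14, adjusted p = 4.57e-07 with EZH2i (both edgeR).

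Cell cycle genes are given beside these counts, since their levels follow the share of dividing cells. Of 25 cell cycle genes, 23 were called lower with the combination in SUDHL6 and 21 in Oci-Ly18, with medians of -0.50 and -0.50. In Oci-Ly7 7 were lower and 2 higher, and in Oci-Ly8 5 were lower and 4 higher, with medians of -0.028 and -0.016. Of all genes, 16.8% were lower in SUDHL6 and 14% in Oci-Ly18, 12.2% were lower and 17.7% higher in Oci-Ly7, and 16.9% were lower and 18.1% higher in Oci-Ly8. The 42 genes had 34 calls in Oci-Ly8 and 13 in Oci-Ly18. With DOT1Li in SUDHL6, where 25 of the 42 were lower, the median of the 25 cell cycle genes was 0.00061. In the averaged combination MCM6 (-0.46 ± 0.030, adjusted p = 2.1e-17), CCNA2 (-0.39 ± 0.030, adjusted p = 2.78e-15) and MCM5 (-0.39 ± 0.033, adjusted p = 4.66e-14) had the smallest p of that list. The part of cell division in the results was not tested.

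**Figure D5:**
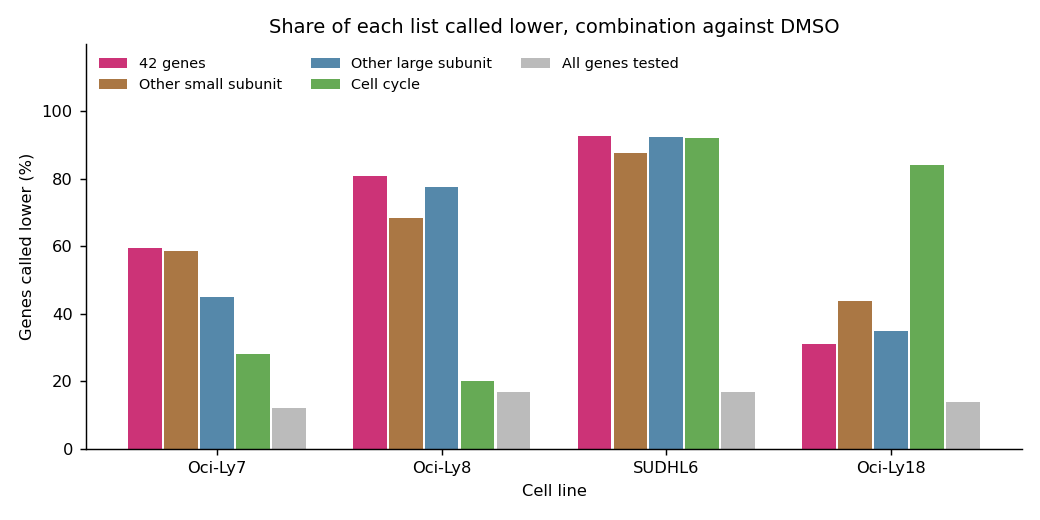
Share of genes called lower (y axis, percent, from 0) with the combination against DMSO in each line (x axis), for the 42 genes, other small subunit and large subunit assembly genes, cell cycle genes and all genes tested. The 42 genes and both assembly lists stand above the cell cycle list in Oci-Ly7 and Oci-Ly8 and below it in Oci-Ly18, and in SUDHL6 all 4 lists lie between 87.8% and 92.9%.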

How the data were processed

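RNA was sequenced from 48 libraries prepared with a stranded poly(A) kit, per the labels' protocols. The deposited table holds raw counts per gene, made by the authors with STAR on GRCh38 (hg38), with DESeq2 also named, per the submitters' processing notes. The counter, with its strand setting and annotation, is not given in the sources used here, so reads of overlapping genes may be split or lost. On either strand, other genes share 23.9% of the exonic bases of HSPE1, 23.5% of PA2G4 and 20.8% of TSR1. For NOB1 and NIP7 this is 20.2% each, and for NOP16 19.95%. Groups were taken from the sample labels. Counts were scaled by TMM, and 17749 of 37706 genes passed the low count filter of edgeR (version 4.0.16, R version 4.3.3). The quasi-likelihood F test was fitted over all 16 groups with 32 residual degrees of freedom, and p-values were adjusted by Benjamini-Hochberg over all genes tested. Averages weight the 4 lines equally. A difference between lines was tested as the treatment by line interaction. Fold changes are log2, levels (CPM) are counts relative to TMM-scaled library totals, and the steps were tested on simulated data.

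The members and lists were chosen with earlier results of these data known. Values in every library are given for MYC, for the 2 genes of each role with the smallest p in the averaged combination, for the 3 with the smallest p between lines for each treatment, and for genes called opposite to most in an average. Other lists are represented by up to 3 genes with the smallest p. Library totals of 5174269 to 18845074 counts set the precision, and the shallowest library was Oci-Ly8 DOT1Li replicate 3, followed by 11391942 counts in the next. Alternatives were DESeq2 (version 1.42.0), other scalings, no filter, a replicate block, single-line fits and left-out libraries. Gene lengths and overlaps come from GENCODE 29 and promoters from RefSeq on GRCh38.p14.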

Additional observations from a re-analysis of the deposited data

Results flagged for a closer look

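Treatment effects that differed between the 4 lines by an edgeR interaction test met the rule for a closer look. With the combination 30 of the 42 genes differed (43.8% of all genes), with EZH2i 16 (24%) and with DOT1Li 2 (5.14%). In the main fit the DOT1Li share was thus near that of all genes. The DOT1Li count was 16 without the 2 libraries poor in long transcripts, 17 under a replicate block and 9 by DESeq2. Shares of all genes in those fits are not given here. For the combination the smallest adjusted p-values were those of MYC (1.92e-10), NOB1 (2.59e-07) and NIP7 (6.87e-07). For EZH2i they were those of MYC (6.97e-07), RRP9 (0.00114) and LYAR (0.00139). For DOT1Li they were those of MYC (0.0156) and RRP9 (0.0481). The SUDHL6 effect was lower than the mean of the other lines for 24 genes with the combination (10.4% of all genes). With EZH2i it was lower for 15 genes (4.24%) and with DOT1Li for 3 (0.485%). No explanation of these differences was tested.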

How the results depend on the processing

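All 42 genes stayed lower in the averaged combination under the replicate block, without the 2 Oci-Ly8 libraries poor in long transcripts and without any 1 library, and 38 did when libraries were scaled by totals only. That scaling moved the median of all genes by 0.12 in SUDHL6 and 0.11 in Oci-Ly8 with the combination. Of 138 single-gene effects, 1 that was called in the main fit or in an alternative changed sign: MYC in the averaged combination, at 0.0058 without SUDHL6. Sign changes between uncalled values were not counted. The other counts moved as follows. Causes were not tested.

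With DESeq2 size factors EZH2i called 5 lower and 2 higher in Oci-Ly8 and 5 higher in Oci-Ly18. Totals only gave the same 3 counts, 2 higher in the EZH2i average, and 1 higher in Oci-Ly8 and 4 in Oci-Ly18 with the combination. DESeq2 itself called 4 lower with DOT1Li and 2 higher with EZH2i in Oci-Ly8, 5 higher with EZH2i in Oci-Ly18, and 9 between lines for DOT1Li. Without the low count filter that last count was 4.

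Without both libraries poor in long transcripts, 29 were lower in the DOT1Li average. With EZH2i 10 were lower in Oci-Ly7, 4 lower and 2 higher in Oci-Ly8, and 5 higher in Oci-Ly18, and with the combination 24 were lower in Oci-Ly18. Between lines 16 differed for DOT1Li and 29 for EZH2i. With each line fitted alone, DOT1Li called 0 in Oci-Ly8 and 2 lower in Oci-Ly18. EZH2i called 13 lower in Oci-Ly7, 0 lower and 0 higher in Oci-Ly8, and 12 lower and 6 higher in Oci-Ly18. The combination called 28 lower and 2 higher in Oci-Ly18. Averages over 3 lines, added after seeing the data, gave EZH2i 2 higher without Oci-Ly7, 13 lower and 2 higher without SUDHL6, and 0 higher without Oci-Ly18, and gave DOT1Li 3 lower without SUDHL6.

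Residuals of same-numbered libraries correlated weakly but above 0 in every pair, between 0.02 and 0.41. Medians per line were 0.048 to 0.090, against -0.065 to -0.023 for pairs with other numbers. In each line 1 to 8 of 18 same-numbered pairs passed 0.1. The main fit has no block, since the labels do not say what a replicate number marks. The replicate block gave 27 lower in the DOT1Li average and 7 in Oci-Ly8. EZH2i then had 11 lower and 1 higher in Oci-Ly7, 2 higher in Oci-Ly8 and 5 higher in Oci-Ly18. The combination had 22 lower in Oci-Ly18, non-additivity had 1 lower in the average, and 17 differed between lines for DOT1Li and 25 for EZH2i.

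Leaving out each library in turn, with the dispersion trend of the full fit, gave these ranges of genes called lower. DOT1Li had 15 to 34 in the average, 0 to 19 in Oci-Ly8, 12 to 31 in SUDHL6 and 0 to 0 in Oci-Ly7 and Oci-Ly18. EZH2i had 25 to 32 in the average, 3 to 9 in Oci-Ly7, 2 to 20 in Oci-Ly8, 24 to 34 in SUDHL6 and 4 to 7 in Oci-Ly18, with 0 to 3 higher in Oci-Ly8 and 1 to 5 in Oci-Ly18. The combination had 17 to 29 in Oci-Ly7, 29 to 36 in Oci-Ly8, 36 to 39 in SUDHL6 and 8 to 22 in Oci-Ly18. It had 32 to 37 against DOT1Li and 35 to 38 against EZH2i. EZH2i against DOT1Li had 8 to 11 lower and 4 to 6 higher. Between lines 0 to 14 differed for DOT1Li, 11 to 24 for EZH2i and 28 to 37 for the combination. Non-additivity in Oci-Ly8 had 2 lower without DMSO replicate 2. In Oci-Ly8, DOT1Li calls were 19 without DMSO replicate 1 and 0, 1 and 11 without DOT1Li replicates 1, 2 and 3, and EZH2i calls were 20 without DMSO replicate 1, 2 without DMSO replicate 3, and 5 without EZH2i replicate 1 or 3. Without Oci-Ly8 DMSO replicate 1 or 3 EZH2i had 9 lower in Oci-Ly7 and 5 higher in Oci-Ly18, and without Oci-Ly18 DMSO replicate 1 or EZH2i replicate 2 it had 1 higher there.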
